A study of Mus musculus with 8 samples.

Results

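Dcaf17 and Ppig are 2 protein-coding genes on chromosome 2 of the mouse, and they were 2 of the 16119 genes in the authors' table of counts from sorted bone marrow progenitors. They were chosen by their counts in the high fat diet (HFD) libraries against the control libraries, as the protein-coding genes called lower in edgeR beside the heat shock genes Hspa1a and Hspa1b. That difference is what picked them, so its values are a description and no test of it is given.

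The cells were DC-restricted progenitors (CDPs), which give rise to dendritic cells (DCs). About 50000 of them per library were sorted from the bone marrow (BM) of C57BL/6 mice, C57BL/6J in the methods, as negative for lineage markers, intermediate for c-kit, low for Sca1 and positive for CD115 and Flt3. In 4 libraries the mice had received the HFD, with 60 kcal% fat (labelled DIO), and in the other 4 a control feed (CF) with 10 kcal% fat (labelled DIO-Control). No transgene, allele or drug is named for either group. The labels give 16 weeks of diet for HFD and call CF matched in age and diet, while the methods give 16 weeks as the age of the male mice when bought. The paper's results state up to 16 weeks of feeding with 60 kcal% fat. The methods call the replicates independent, but whether a replicate was 1 mouse or a pool is not stated in the sources used here.

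Dcaf17 encodes a substrate receptor of the CRL4 ubiquitin ligases. In these, the cullin Cul4a or Cul4b and the RING protein Rbx1 form the catalytic core, the adaptor Ddb1 sits on the cullin, and one of many DCAF proteins brings the protein to be ubiquitinated. Loss of DCAF17 in people causes Woodhouse-Sakati syndrome, and mice need the gene to form sperm. Ppig encodes cyclophilin G, one of the peptidyl-prolyl isomerases, which turn the bond before a proline in a protein chain. It carries a long tail rich in arginine and serine, is found with splicing factors in nuclear speckles, and binds the tail of RNA polymerase II.

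In GENCODE vM21 on GRCm38, Dcaf17 (ENSMUSG00000041966) runs forward over chr2:71055328-71099142, with 9806 nt of exons in 9 transcripts, of which 6 are coding. Ppig (ENSMUSG00000042133) also runs forward, over chr2:69722545-69754012, with 8122 nt of exons in 12 transcripts, of which 3 are coding. The sequence before each RefSeq start is shown because the pair were lower in the same libraries, which makes the letters at their starts of interest. The bases are those before the start that no GENCODE exon covers, 160 for Dcaf17 (chr2:71055584-71055743) and 130 for Ppig (chr2:69722958-69723087), from RefSeq on the forward strand of GRCm38.p6. The RefSeq starts (71055744 and 69723088) lie downstream of the GENCODE starts. The bases shown are therefore inside both GENCODE spans, and every start below is the RefSeq one. Capitals mark motif letters.
Dcaf17: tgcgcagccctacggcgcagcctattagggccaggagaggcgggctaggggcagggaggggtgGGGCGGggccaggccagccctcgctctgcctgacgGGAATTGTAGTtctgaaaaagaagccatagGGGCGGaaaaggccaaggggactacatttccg
Ppig: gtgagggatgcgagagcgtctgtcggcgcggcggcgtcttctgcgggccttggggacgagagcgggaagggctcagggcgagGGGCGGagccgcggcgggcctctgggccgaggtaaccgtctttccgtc

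The motifs were searched on both strands, and were chosen after these sequences were seen. A GC box (GGGCGG) was found in both, at 97 to 92 and at 32 to 27 bases before the Dcaf17 start and at 48 to 43 bases before the Ppig start. It is a common motif, present in 35.7% of the 32851 RefSeq windows of 250 bases before to 50 after a start. Dcaf17 also had the motif of 11 letters named for the factor ZNF143, on the reverse strand at 62 to 52 bases before the start, where it is the longest run of capitals. That motif was in 0.286% of the windows (94 of them), and the overlapping window of Mettl8, which is read the other way, holds it too. Neither gene's window held TATAAA (13.6% of windows), CCAAT (37.4%), TGACGTCA (1.79%) or the heat shock element, searched as GAA, TTC and GAA each 2 bases apart (0.603%). The Hspa1a and Hspa1b windows held no heat shock element by this search either. These matches describe the letters in the windows and no more.

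Dcaf17 was counted at 230, 296, 362 and 357 in the HFD libraries, replicates 1 to 4, and at 650, 522, 537 and 861 in CF. Scaled by TMM and given per 1000000 counts (CPM), these were 7.38, 9.31, 9.50 and 8.66 in HFD and 16.8, 16.6, 16.9 and 22.4 in CF. Every HFD library was below every CF library, the lowest CF value being 1.75 times the highest HFD value. Among the CF libraries, 3 lay close together and replicate 4 stood above them. The mean was 8.71 ± 0.957 CPM (SD, n = 4) in HFD and 18.2 ± 2.81 (SD, n = 4) in CF, so that HFD had 48.0% of the CF level. The log2 fold change in edgeR was -1.06 with a standard error of 0.14.

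Ppig was the more abundant, with 775, 1028, 1414 and 1200 counts in HFD and 1981, 1788, 1647 and 2137 in CF. Its CPM was 24.9, 32.3, 37.1 and 29.1 in HFD and 51.2, 56.9, 51.9 and 55.5 in CF. Again no libraries overlapped between the diets, with the lowest CF value at 1.38 times the highest HFD value. The means were 30.9 ± 5.16 CPM (SD, n = 4) in HFD and 53.9 ± 2.77 (SD, n = 4) in CF, which puts HFD at 57.3% of CF. The log2 fold change was -0.80 with a standard error of 0.13.

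**Figure D1:**
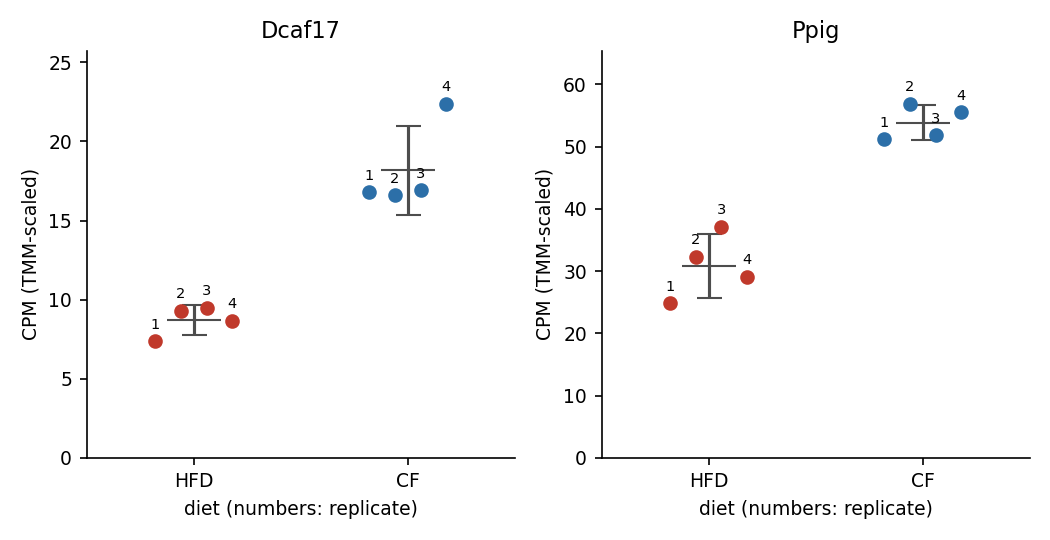
Level of Dcaf17 and Ppig in CPM (TMM) in each of the 8 libraries, drawn as points by diet, with a line for the mean and a bar for the SD (n = 4). The HFD libraries reach at most 9.50 CPM for Dcaf17 and 37.1 for Ppig, and all CF libraries lie above these.

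The ratio of Ppig to Dcaf17 in CPM did not separate the diets. It was 3.37, 3.47, 3.91 and 3.36 in HFD and 3.05, 3.43, 3.07 and 2.48 in CF. The lowest ratio was in CF replicate 4, where Dcaf17 was highest. Per length of exons, Dcaf17 had 0.889 ± 0.0976 RPKM (TMM-scaled CPM divided by the length of the exons in kb) in HFD and 1.85 ± 0.286 in CF, and Ppig had 3.80 ± 0.636 and 6.63 ± 0.341 (SD, n = 4 each).

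Of the 15837 genes tested, 67 (0.423%) were called lower in HFD at an adjusted p below 0.05 and 0 (0%) higher, and at an unadjusted p below 0.05 the counts were 845 (5.34%) lower and 510 (3.22%) higher. That balance depended on the scaling, since library size alone in place of TMM gave 611 lower and 1571 higher. Of the 11775 protein-coding genes tested, 4 (0.034%) were called lower and 0 (0%) higher. Without adjustment, 197 of them (1.67%) had a p below 0.05 and were lower, and 437 (3.71%) were higher. These 4 are Hspa1b, Dcaf17, Hspa1a and Ppig, so the count restates the choice. Ppig was the last of them inside the threshold, and the next protein-coding genes outside it were Arc with a log2 fold change of -2.06 (edgeR with Benjamini-Hochberg adjustment, adjusted p = 0.071) and Tap1 with -0.60 (adjusted p = 0.072). Groups that did not overlap in this direction were seen for 567 of all genes tested (3.58%) and for 112 of the protein-coding genes (0.951%), and in the other direction for 409 (2.58%) and 331 (2.81%). By fold alone the pair was less extreme, since 96 protein-coding genes had a log2 fold change as low as that of Dcaf17 or lower, and 172 as low as that of Ppig. Among the 6660 with a mean of at least 10 CPM, 22 and 36 did. By mean level, Dcaf17 stood at percentile 51.8 of the protein-coding genes and Ppig at 82.3.

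The libraries differed in make-up. They held 28203651 to 48409689 counts. Short non-coding genes, here those whose exons sum to 200 nt at most, took 8.50% to 13.6% of them in HFD and 21.7% to 33.9% in CF, and rRNA genes, long and short, took 42.3% to 44.3% in HFD and 33.9% to 40.5% in CF. Both shares separated the diets, but only the short non-coding share was lower in HFD as the 2 genes were, while the rRNA share was higher. Short rRNA genes are in both shares. Protein-coding genes took 38.9% to 41.9% in HFD and 28.3% to 42.0% in CF, which overlapped through CF replicate 4, the highest. The part of these shares in the result was not tested. Scaled by library size alone instead of TMM, the median log2 fold change of all genes went from 0.055 to 0.25, while Dcaf17 was at -0.89 (1.14 below that median) and Ppig at -0.61 (0.85 below it). The 5 genes listed for the sorted progenitor (Kit, Flt3, Csf1r, Cd34 and Irf8) were all counted. Of these, Cd34 and Irf8 are not among the markers of the sort given above. The summed level of the 5 was 502 to 1197 CPM for HFD libraries and 837 to 991 for CF libraries. HFD replicate 1 had the lowest value of these, the lowest Dcaf17 and Ppig of all libraries, and the highest sum of 8 neutrophil genes, at 18045 CPM against 855 to 5909 in the other 7 libraries. Without that library, the log2 fold change was -0.99 for Dcaf17 and -0.71 for Ppig. Summed levels in HFD and CF were 69.2 to 335 and 64.8 to 101 CPM for 6 erythroid genes, 429 to 822 and 314 to 486 for 6 B cell genes, and 149 to 284 and 147 to 190 for 5 plasmacytoid DC genes. They were 7.89 to 28.9 and 10.5 to 19.5 for 4 of 5 T and NK cell genes (Ncr1 is not in the table), and 7.13 to 37.6 and 13.5 to 28.1 for 4 mast cell and basophil genes. HFD replicate 1 was the highest library for the erythroid, B cell, T and NK cell, and mast cell and basophil genes. The erythroid sum was at most 105 CPM in the other libraries. For the plasmacytoid DC genes that replicate was the lowest HFD library. No counted marker was at 0 in all libraries, and the part of other cells in the result was not tested. In bulk RNA, fewer cells of a type and less RNA per cell cannot be told apart.

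A short gene inside a longer one can share its reads, so the genes overlapping Dcaf17 and Ppig were looked up. In GENCODE vM21, 0 non-coding genes of up to 200 nt lie inside either gene, and the RefSeq tables also had none. The nearest counted one on the chromosome was Snord67, a small nucleolar RNA, 20497 kb from Dcaf17 and 21842 kb from Ppig. The only gene inside Ppig was Gm13622, a processed pseudogene of 433 nt on the other strand (chr2:69737357-69737789), which shares no base with a Ppig exon. It had 41, 30, 36 and 33 counts in HFD and 28, 26, 22 and 54 in CF, or 1.34% to 5.29% of the counts of Ppig. These values overlapped, with a log2 fold change of 0.13 and a standard error of 0.33 (edgeR, adjusted p = 0.97). No gene lies inside Dcaf17.

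Dcaf17 does share sequence with Mettl8, which encodes a methyltransferase for mitochondrial tRNA. The pair stand head to head on opposite strands and overlap by 256 nt, of which 126 nt are exons of both. The strand setting of the counting is not given in the sources used here, and without strand, reads from these shared bases cannot be told apart. Mettl8 was at 7.54, 7.83, 5.25 and 6.19 CPM in HFD and at 5.48, 5.09, 5.86 and 5.77 in CF. Its groups overlapped and its mean was the higher in HFD, 6.70 ± 1.21 against 5.55 ± 0.347 (SD, n = 4), with a log2 fold change of 0.27 and a standard error of 0.16 (edgeR, adjusted p = 0.77). With the counts of both genes added, an alternative chosen after seeing the data, the log2 fold change of the sum was -0.62.

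Protein-coding genes tested were split by the counted short non-coding genes wholly inside them on the same strand. By this rule 11589 held none, as is so for Dcaf17 and Ppig, 119 held one in an intron and 67 one that overlapped an exon. Short genes on the other strand or only partly inside did not enter the split. The median log2 fold changes were 0.071, 0.044 and 0.048. Of the genes without a short gene 4 were called lower, the same 4 that the choice rests on, and of those with one 0 in an intron and 0 in an exon. With 0.034% of all protein-coding genes called lower, counts of 0 among 119 and 67 are near the background. At an unadjusted p below 0.05, 191 of 11589, 1 of 119 and 5 of 67 were lower, beside 1.67% of all protein-coding genes, and 434, 3 and 0 were higher, beside 3.71%.

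The 2 genes lie 1.30 Mb apart, and none of the counted genes around them was called. Of 26 genes annotated between them 11 were counted, 8 with a positive and 3 with a negative log2 fold change, and 0 were called in edgeR, DESeq2 or limma voom. At an unadjusted p below 0.05, 0 of the 11 were lower and 1 was higher, where of all genes tested 5.34% were lower and 3.22% higher. That gene was Tlk1, which encodes a kinase of chromatin assembly, with 57.0 ± 6.20 CPM in HFD and 47.4 ± 1.18 in CF (SD, n = 4) and a log2 fold change of 0.27 with a standard error of 0.10 (adjusted p = 0.44). Its HFD libraries, at 49.8 to 64.9 CPM, all lay above its CF libraries, at 46.1 to 48.5, a separation seen in 2.58% of all genes tested. Within 1 Mb on either side, the 32 other genes tested had a median of 0.13 and a range of -0.72 to 0.54. Of these 22 were positive, where 59.7% of all genes tested were, and 0 were called and 0 had every HFD library below every CF library. With 0.423% of all genes called lower and 3.58% apart in that direction, counts of 0 among 32 do not set the neighbours apart from other genes. The lowest, Ccdc173, lies 4.02 kb from Ppig, but at 0.807 ± 0.458 CPM in HFD and 1.33 ± 0.899 in CF its standard error was 0.60 (adjusted p = 0.84), and it ran from -1.01 to -0.14 with single libraries left out (-0.14 without CF replicate 4, -0.40 without HFD replicate 1). Fastkd1, at 9.03 kb from Ppig, was at 0.13 with a standard error of 0.15 (adjusted p = 0.90), from 0.070 without HFD replicate 4 to 0.23 without HFD replicate 1. Among the remaining nearest coding genes, the values were 0.17 for Gorasp2, -0.02 for Dync1i2, 0.04 for Slc25a12, 0.14 for Hat1, 0.45 for Bbs5, -0.06 for Dhrs9, -0.34 for Phospho2 and 0.17 for Klhl23. Phospho2 ran from -0.62 without HFD replicate 4 to -0.14 without HFD replicate 1. Bbs5, under 1 CPM in both diets, had a standard error of 0.79 and ran from 0.087 without CF replicate 2 to 0.94 without CF replicate 4. Dhrs9, 318 kb from Ppig, had 62.5, 8.09, 5.40 and 4.05 CPM in HFD and 9.92, 18.9, 30.9 and 23.8 in CF. HFD replicate 1 stood above all others, and HFD replicates 2 to 4 lay below every CF library. Its standard error was 0.86, and without HFD replicate 1 its log2 fold change was -1.84 with a standard error of 0.40 (edgeR, adjusted p = 0.075), larger in size than that of Dcaf17.

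**Figure D2:**
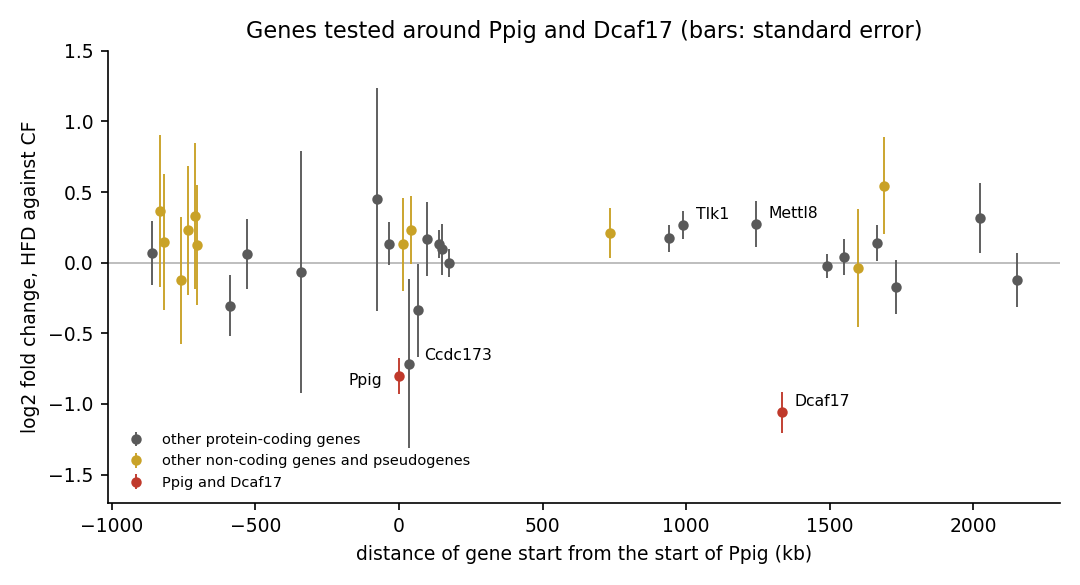
Log2 fold change (HFD against CF, edgeR) of the genes tested within 1 Mb of Dcaf17 and Ppig, against the distance of each gene's start from that of Ppig in kb, with bars for the standard error and colours for protein-coding, other and the 2 genes described. Dcaf17 at -1.06 and Ppig at -0.80 lie below the other 32 genes, whose lowest is -0.72 with a standard error of 0.60.

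The genes whose pattern over the 8 libraries was most like each of them were ranked among protein-coding genes by the root mean square difference of log2 CPM after centring, over all 8 libraries. Because both genes were chosen for this pattern, the ranking is a description. Nearest to Dcaf17 was Ppig (0.18), then Rgs1 and Tap1 (both 0.26), Nagk and Vdr (both 0.27). Nearest to Ppig were Tap1 (0.15), Sdc3 (0.17), Dcaf17 (0.18), Mat2a (0.19) and Naaa (0.20). The same 8 libraries chose the pair, and the difference between the diets enters the measure.

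Tap1, which encodes a part of the transporter that supplies peptides to MHC class I, was at 30.7, 31.1, 40.4 and 34.6 CPM in HFD and at 50.7, 51.9, 49.1 and 55.4 in CF. Its groups did not overlap, and like Ppig it was highest in replicate 3 within HFD. Sdc3, a cell surface proteoglycan of the syndecans, was at 15.3 ± 2.83 CPM in HFD and 25.2 ± 3.93 in CF, and Naaa, an enzyme that breaks down N-acylethanolamines, at 36.0 ± 8.07 and 65.4 ± 10.6. Mat2a, which makes S-adenosylmethionine, had 49.2, 56.2, 96.7 and 52.1 CPM in HFD and 94.1, 96.4, 91.5 and 103 in CF. In Mat2a the groups overlapped through HFD replicate 3, which was also the highest HFD library for Ppig. Rgs1, a regulator of G protein signalling, was at 3.26 ± 0.925 and 6.55 ± 1.57 CPM, the kinase gene Nagk at 3.44 ± 0.492 and 5.26 ± 0.781, and Vdr, the vitamin D receptor, at 2.78 ± 0.326 and 4.19 ± 0.743. All 7 were lower in the HFD mean, by 0.59 to 1.01 on the log2 scale.

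**Figure D3:**
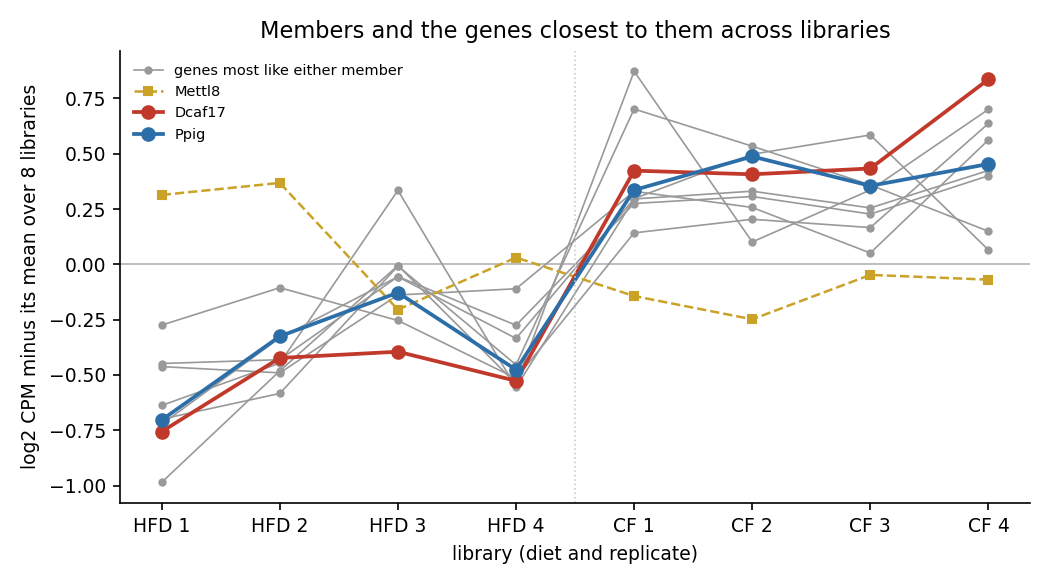
Centred log2 CPM of Dcaf17, Ppig and the genes with the most similar pattern in the 8 libraries, with Mettl8 as a dashed line. Each point is 1 library, and lines only join the points of a gene. HFD libraries lie below CF libraries for Dcaf17 and Ppig, and Mat2a in HFD replicate 3 (96.7 CPM) is at the level of CF.

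The ligase that Dcaf17 serves was followed in 39 other genes (cullins, adaptor and other core proteins, substrate receptors, the COP9 signalosome, and Nedd8, Ube2m and Cand1, which act on cullins), all of them tested. None was called in either direction, also with DESeq2 or limma voom. At an unadjusted p below 0.05, 1 was lower and 0 were higher. Of all protein-coding genes 0.034% were called lower, and 1.67% were lower and 3.71% higher without adjustment, so 0 calls among 39 are near the background. Log2 fold changes ran from -0.51 to 0.55, with a median of 0.11 beside 0.055 over all genes, and 32 were positive and 7 negative, where 64.6% of protein-coding genes were positive. In the core, Ddb1 was at 138 ± 9.32 CPM in HFD and 124 ± 9.99 in CF, a log2 fold change of 0.15 with a standard error of 0.10 (edgeR, adjusted p = 0.80), or 0.098 without CF replicate 4. Cul4a was at 35.4 ± 8.87 and 31.5 ± 1.26, a log2 fold change of 0.17 with a standard error of 0.16 (adjusted p = 0.87), and its highest library, HFD replicate 1, had 48.5. Without that library the value was -0.019. Cul4b was at -0.03 with a standard error of 0.11 (adjusted p = 0.98) and Rbx1 at 0.18 with 0.15 (adjusted p = 0.84), or 0.040 without HFD replicate 4.

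Among the other receptors the lowest was Dcaf10, with 8.67, 11.2, 8.21 and 8.64 CPM in HFD and 7.86, 15.2, 13.9 and 15.2 in CF. CF replicate 1 lay below all HFD libraries, and the log2 fold change was -0.51 with a standard error of 0.22 (edgeR, adjusted p = 0.58). Det1, a partner of Ddb1, was the highest at 0.55 with a standard error of 0.27 (adjusted p = 0.67), with 6.84, 5.73, 7.29 and 6.89 CPM in HFD and 2.69, 6.58, 5.42 and 3.66 in CF, where CF replicate 2 overlapped. Det1 was at 0.36 without CF replicate 1 and at 0.77 without CF replicate 2. Cops8, of the COP9 signalosome that takes NEDD8 off cullins, was at 0.27 with a standard error of 0.15 (adjusted p = 0.73). Compared per length, Dcaf17 ranked 8th of the 12 Dcaf genes in CF and last of the 12 in HFD, where the median of the others was 3.56 RPKM.

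The family of Ppig was followed in 16 other cyclophilins, of which 15 were tested (Ppil6 is not in the table), and 0 were called in edgeR, DESeq2 or limma voom. At an unadjusted p below 0.05, 0 were lower and 1 was higher. Beside the same shares of all protein-coding genes, 0 calls among 15 are near the background too. Their log2 fold changes ran from -0.02 to 0.46 with a median of 0.14, and 13 were positive and 2 negative, beside the 64.6% positive of protein-coding genes. Nktr, the other large cyclophilin with a tail rich in arginine and serine, was at 101, 106, 79.9 and 70.1 CPM in HFD and at 73.0, 93.4, 86.6 and 98.5 in CF. The diets overlapped throughout, with means of 89.3 ± 17.1 and 87.9 ± 11.0 and a log2 fold change of 0.02 with a standard error of 0.16 (edgeR, adjusted p = 0.99). Ppia, the abundant cytosolic cyclophilin A, was at 168 ± 23.8 and 148 ± 14.3 CPM (0.19, standard error 0.13, adjusted p = 0.80). Ppwd1, a nuclear cyclophilin found with the spliceosome, was at 15.3 ± 1.43 and 12.1 ± 1.77 (0.34, standard error 0.14, adjusted p = 0.51), and Ppib, of the endoplasmic reticulum, at a log2 fold change of 0.23 with a standard error of 0.13 (adjusted p = 0.75). Without HFD replicate 4, Ppia was at 0.051 and Ppib at 0.098. Per length, Ppig ranked 4th of the 16 cyclophilins tested, itself included, in CF with 6.63 RPKM and 11th in HFD with 3.80, where the median of the others was 4.75 and 5.18 RPKM in turn.

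**Figure D4:**
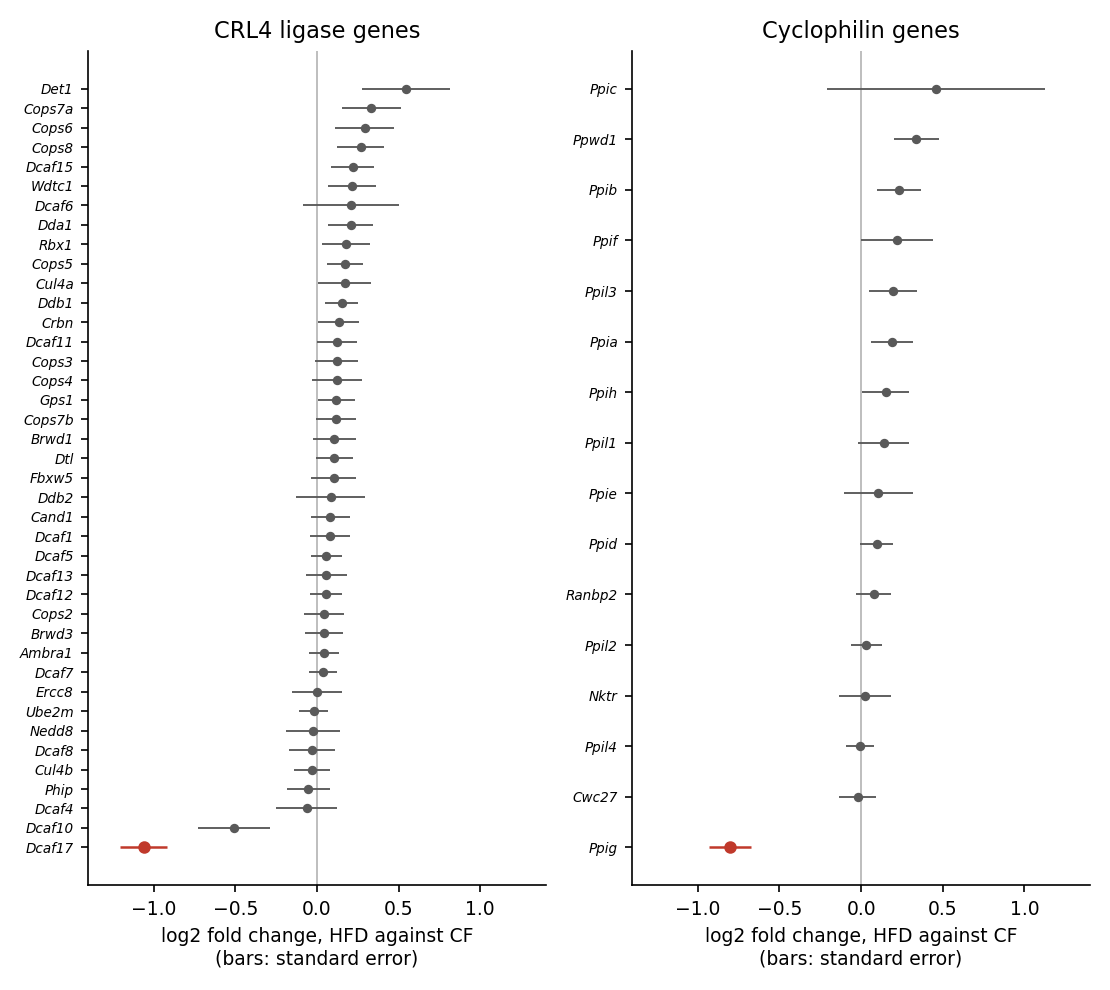
Log2 fold change (HFD against CF) of each tested gene of the CRL4 ligase list and the cyclophilin list, as points with bars for the standard error, with Dcaf17 and Ppig marked. The listed genes lie between -0.51 and 0.55, above Dcaf17 at -1.06 and Ppig at -0.80.

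With other processing of the same counts, the log2 fold change ran from -1.11 to -0.62 over 18 alternatives for Dcaf17 and from -0.90 to -0.61 over 19 for Ppig. The choice of the pair depended on the processing, since only 7 of the 18 would have picked Dcaf17 and 8 of the 19 Ppig. With 1 library left out, only the fit without HFD replicate 1 would have picked both genes. The fit without CF replicate 4 would have picked Dcaf17 alone.

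**Figure D5:**
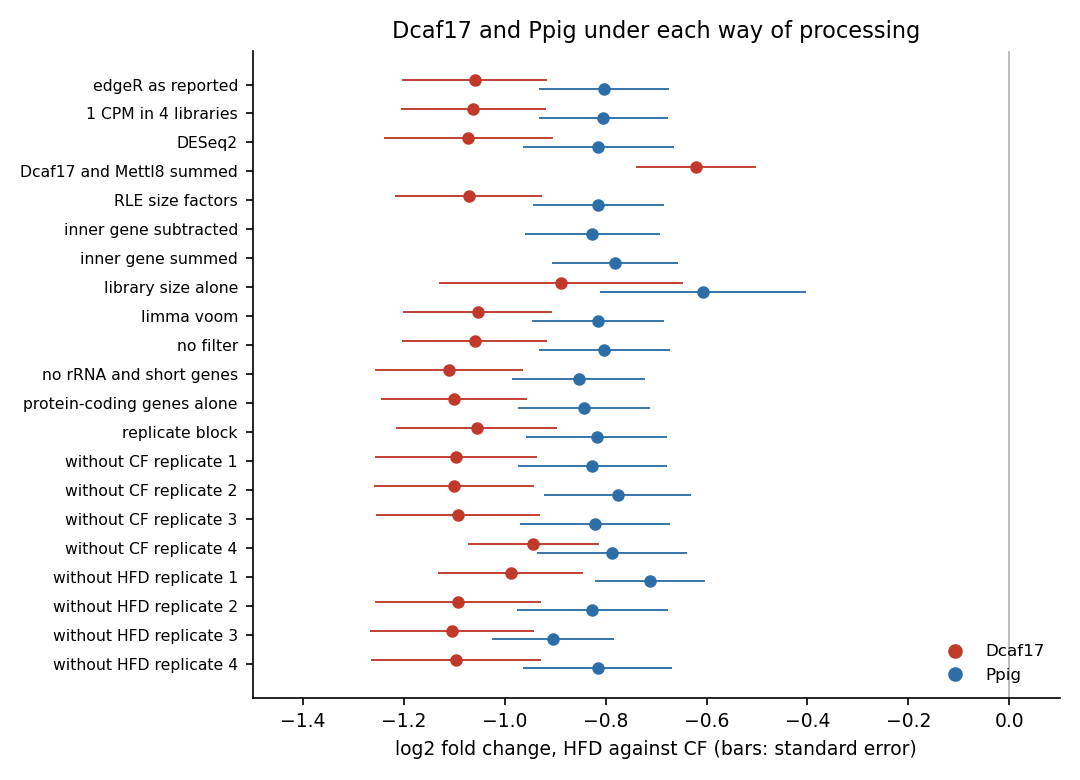
Log2 fold change of Dcaf17 and Ppig (HFD against CF) under each way of processing the counts, as points with bars for the standard error. Dcaf17 lies between -1.11 and -0.62 and Ppig between -0.90 and -0.61.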

How the data were processed

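The data analysed were the authors' raw counts per gene in 8 libraries of total RNA, made with the NuGEN Ovation Solo system and sequenced as pairs of 75 bp. Per the labels and methods, the authors trimmed with cutadapt, aligned to GRCm38 with HISAT2 and counted annotated genes with StringTie. Tool versions, annotation release and strand setting are not given in the sources used here. Columns summed to 28203651 to 48409689. Of 16119 genes, 16067 were matched by identifier to GENCODE vM21, which gave names, coordinates and exon lengths.

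Genes kept by filterByExpr (15837) were scaled by TMM and compared by the robust quasi-likelihood test of edgeR 4.0.16 in R 4.3.3, with diet as the only term and Benjamini-Hochberg adjustment over all genes tested at 0.05. Log2 CPM used a prior count of 2. The fit was tested on simulated data. No libraries were duplicates. P-values measure the spread between these libraries, which may be technical if they share mice. The members and lists were chosen with earlier results of these data known. Named are both genes, overlapping genes, the 3 nearest counted coding genes on each side, the 5 with the most similar pattern, the 3 lowest p of each list, and Cul4a, Cul4b, Ddb1, Rbx1, Ppia and Nktr. Arc, Hspa1a, Hspa1b and Snord67 were named after their values were seen. Kit, Flt3, Csf1r, Cd34, Irf8 and Ncr1 are from the lists of cell type markers. Alternatives were DESeq2 1.42.0, voom of limma 3.58.1, RLE factors, library size alone, no filter, 1 CPM in 4 libraries, protein-coding genes alone, no rRNA or short genes, a replicate block, inner genes subtracted or added, and each library left out. Mettl8 added to Dcaf17 was chosen later. Python 3.11.15 with matplotlib 3.10.9 made the plots.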

Additional observations from a re-analysis of the deposited data

Results flagged for a closer look

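In groups of 4 libraries, a library far from the other 3 (Dixon's test at 95%) was seen in 7 of 66 groups looked at, where chance gives about 1 in 20 for independent groups. These groups are not independent, since some genes, Vdr among them, were named for their likeness to Dcaf17 or Ppig over the same libraries. Dcaf17 was among them, with a log2 CPM of 4.49 in CF replicate 4 against 4.06 to 4.08 in the other CF libraries. The same library was high for Vdr, at 2.42 against 1.93 to 1.99, and low for Cul4b, at 5.07 against 5.33 to 5.37. HFD replicate 1 was low for Gorasp2, at 5.03 against 5.14 to 5.15, and for Fastkd1, at 2.67 against 3.08 to 3.11. CF replicate 1 was low for Dcaf10, at 2.98 against 3.80 to 3.93, and HFD replicate 4 was high for Ppib, at 5.64 against 5.27 to 5.33. Ppig had no such library.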

How the results depend on the processing

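Dcaf17 and Ppig had negative log2 fold changes under every alternative run. The following, beside most fits with 1 library left out, would not have picked them, which describes the choice and is no test of the genes. For Dcaf17 they were library size alone (-0.89), protein-coding genes alone (-1.10), no rRNA and short genes (-1.11) and Mettl8 added (-0.62). For Ppig they were library size alone (-0.61), protein-coding genes alone (-0.84) and no rRNA and short genes (-0.85). The replicate block, with Dcaf17 at -1.06 and Ppig at -0.82, would have picked neither. Deviations of libraries with the same replicate number correlated at -0.44 to -0.08, so the numbers were not taken to pair them. The block left 0 of the 67 genes called lower (at an unadjusted p below 0.05, 675 were lower and 236 higher). Left out in turn, single libraries gave -1.10 to -0.94 for Dcaf17 and -0.90 to -0.71 for Ppig. Of these 8 fits, 2 would have picked Dcaf17 and 1 Ppig.

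Genes called lower numbered 503 with DESeq2, 0 with protein-coding genes alone (at an unadjusted p below 0.05, 252 were lower and 285 higher) and 7 without rRNA and short genes. With single libraries left out they ranged from 0 to 166, with 166 without HFD replicate 1 and 154 without CF replicate 4. Genes called higher numbered 64 with DESeq2, 10 with library size alone and 0 to 34 with single libraries left out (34 without HFD replicate 1). Of the protein-coding genes that hold a short gene (in edgeR 119 in an intron and 67 over an exon), 3 were called with DESeq2 and 0 to 1 with single libraries left out. The share of all protein-coding genes called in those fits was not taken, so these counts have no background beside them. No CRL4 gene, other cyclophilin or neighbour was called in any setting. Positive values ranged from 27 to 38 of 39 CRL4 genes and from 10 to 15 of 15 cyclophilins. The causes of these shifts were not tested.

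Of 31 other named genes, 9 changed sign in some setting. With library size alone Dhrs9 was at 0.031, Dync1i2 at 0.17 and Cul4b at 0.18. Without rRNA and short genes Slc25a12 was at -0.0092 and Nktr at -0.029, and with protein-coding genes alone Nktr was at -0.018. With single libraries left out the ranges were -0.019 to 0.23 for Cul4a, -1.84 to 0.25 for Dhrs9, -0.022 to 0.20 for Hat1, -0.029 to 0.42 for Gm13622, -0.11 to 0.31 for Klhl23, -0.087 to 0.11 for Slc25a12, -0.069 to 0.083 for Nktr, -0.071 to 0.0053 for Dync1i2 and -0.095 to 0.0055 for Cul4b. Tap1, Rgs1, Naaa and Sdc3 were called with DESeq2. Subtracting or adding inner genes gave no value for Dcaf17, which has none. Depth limits what the neighbours near 1 CPM show, such as Bbs5 and Ccdc173.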
